A study of Mus musculus with 4 samples.

Results

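Single promoters in replicate 2 only are promoter-proximal Eya1 peaks of E13.5 kidneys that 1 of 2 replicate peak lists held and the other did not. They were chosen by merging both lists on nuclear chromosomes and keeping merged intervals under 2000 bp wide that overlapped a replicate 2 peak and no replicate 1 peak and lay within 1 kb of a transcription start site (TSS). Intervals within 1 kb of both 5′ ends of a divergent pair of protein-coding genes, on opposite strands with 5′ ends at most 1000 bp apart, were left out. The rule kept 723 of 5482 merged intervals (13.2%) and 59.7% of the 1211 intervals that came from replicate 2 alone. The values that chose them were the presence and absence of peaks, the limit on interval width and the 1-kb limit to a TSS, so these are given here as a description. Sequence and the position within that 1 kb, which every class compared here had to meet, were not used to choose them.

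Eya1 was profiled by ChIP-seq in kidneys of embryos with an Eya1 HA-FLAG knockin allele, whose background mixed C57BL/6J with 129/Sv. Anti-FLAG beads pulled down the tagged protein, and 80 kidneys were pooled for each assay, so neither list can be tied to single animals. The series had 2 Eya1 replicates, an input sample and an IgG sample, and the last 2 were not analysed here. Every cell of the kidney that makes Eya1 could add to a peak, and the lists cannot tell cell types apart. The cutoff and control behind each list are not given in the sources used here and may differ between the lists, so their part in a peak's absence from replicate 1 or in the peak widths was not tested. Replicate 1 peaks had a median width of 1069 bp. Replicate 2 listed 4164 nuclear peaks with a median width of 188 bp, together with 11 mitochondrial peaks. Neither list held a read count, score or p-value, so the depth behind a peak is unknown and a site missing from replicate 1 was not called there, which does not show that it was unoccupied.

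Eya1 is a coactivator and phosphatase without a DNA-binding domain of its own, and it reaches chromatin through partner proteins such as the homeodomain factor Six2. REST (also called NRSF) is a zinc-finger repressor that binds the RE1 element and keeps neuronal genes silent outside neurons with its corepressors, CoREST among them. Many RE1 elements lie near promoters or in first introns of genes for synaptic proteins, ion channels and neuropeptides. Promoters of broadly expressed genes, in contrast, mostly lie in CpG islands, stretches rich in G, C and CpG that escape methylation and often hold sites for SP, ETS, NRF1 and NFY factors.

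The members fell into sets of different sequence. RE1, searched within 200 bp centred on the peak with at most 2 mismatches to the 17-base consensus, was found in 76 members (10.5%, exact 95% CI 8.37 to 12.98%). The same search found it in 2.08% of windows on the 5′ ends of all protein-coding genes and in 1.45% of windows placed 1 kb to either side of the members. The other 647 members had no RE1, and 552 of them were CpG-rich. The remaining 95 of these 647 had neither an RE1 nor a CpG-rich window.

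Elements of the first set are shown for its closest matches to the consensus. The 29 members of that set with 2 mismatches are not among them. Members with an RE1 at the 5′ end of a protein-coding gene were ranked by mismatches and then by peak width, and 14 of the first 15 are printed. Each line gives 30 bases of GRCm38 (mm10) on the strand of the element, with the 17 bases of the RE1 in capitals.
Mmp24 (chr2:155775760-155775789, plus strand): gctccgTTCAGCACCGCGGACAGaggcagc
Bsx (chr9:40873862-40873891, plus strand): gacgcaTTCAGCACCGCGGACAGatccccg
Ghsr (chr3:27370328-27370357, minus strand): gaactgTTCAGCACCTCGGCCAGcgcccga
Pomc (chr12:3955617-3955646, minus strand): gagtatTTCAGAACCTTGGACAGttccctc
Gria2 (chr3:80802983-80803012, plus strand): ttcgatTTTAGCACCGCGGACAGcgctttg
Htr1a (chr13:105442782-105442811, minus strand): attgggTTCAGCACCCGGGACAGctctgtg
Cplx2 (chr13:54371721-54371750, minus strand): tgtcccTTCAGCACCACAGCGAGcgggtag
Slc35f4 (chr14:49525292-49525321, plus strand): tcgaggTTCAGCACCGAGGACAGcggacat
Schip1 (chr3:68064927-68064956, plus strand): tagctcTTCAGCACCATGGAGAGgtctgag
Scamp5 (chr9:57468191-57468220, minus strand): cgaataTTTAGCACCACGGACAGctcctgc
Gdap1l1 (chr2:163439369-163439398, plus strand): agtgggTTCAGCACCATGGCCAGagcccag
Tha1 (chr11:117873095-117873124, plus strand): tgtcctGTCAGAACCACGGACAGcgtcccg
Kcnk12 (chr17:87798578-87798607, plus strand): gccggcGTCAGCACCGCGGACAGcgcatcg
Fbll1 (chr11:35799050-35799079, plus strand): cgtccaGTCAGCACCAGGGACAGctacctc

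The first 12 elements of that ranking, Syt4 among them, matched the consensus at every base, and the last 3 (Tha1, Kcnk12 and Fbll1) had 1 mismatch. Of these 15 genes, 6 were on the lists of neuronal genes counted below. Gria2 encodes an AMPA-type glutamate receptor subunit, Htr1a a serotonin receptor, Cplx2 a complexin that controls vesicle fusion, Syt4 a synaptotagmin and Scamp5 a secretory vesicle membrane protein. Pomc encodes the precursor of melanocortins and ACTH, Ghsr the ghrelin receptor, Bsx a homeobox factor of the hypothalamus and Kcnk12 a potassium channel. Mmp24, a membrane-bound metalloproteinase, had the widest of these peaks, at 272 bp, and Gdap1l1 the narrowest, at 138 bp. By the rule no replicate 1 peak overlapped these 15 sites, and the nearest lay between 19657 bp (Gdap1l1) and 1515232 bp (Gria2) away. Over all 76 members with RE1 the gap was as small as 365 bp, with a median of 128900 bp. Members without RE1 had a median gap of 87470 bp.

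**Figure D1:**
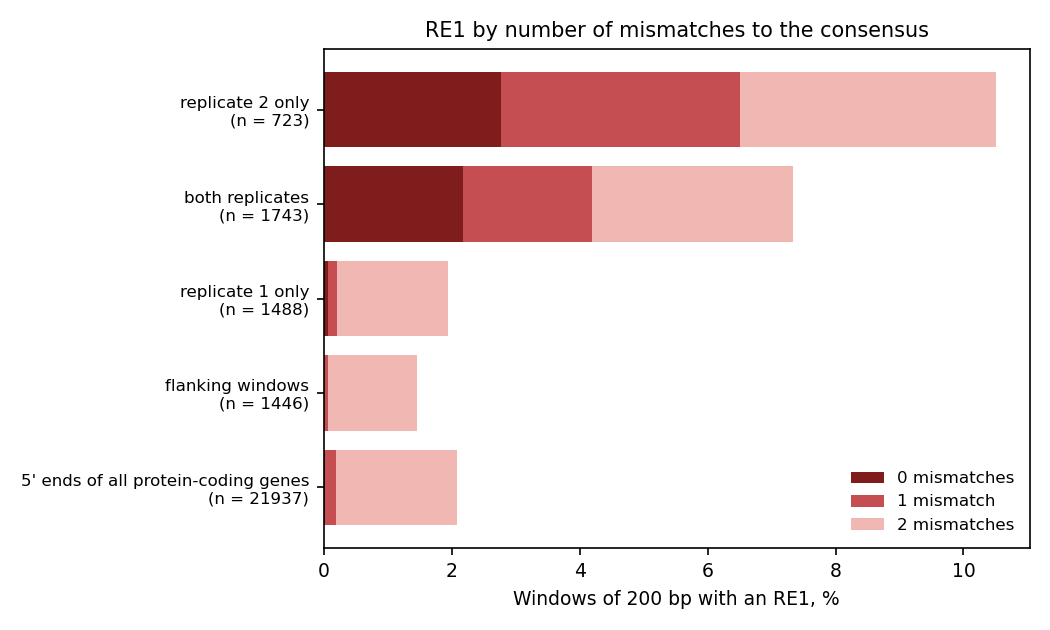
Share of 200-bp windows with an RE1 (percent, horizontal axis), split by mismatches to the consensus, at single promoters of replicate 2 only, of both replicates and of replicate 1 only, in flanking windows and on 5′ ends of all protein-coding genes. Elements with 0 or 1 mismatch filled 6.50% of replicate 2 only windows and 0.202% of replicate 1 only windows.

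Elements close to the consensus were rare outside the peaks. Of the 76, 20 matched at every base, 27 had 1 mismatch and 29 had 2. Elements with at most 1 mismatch were thus in 47 of 723 members (6.50%), against 1 of 1446 flanking windows (0.0692%) and 41 of 21937 protein-coding 5′ ends (0.187%). With 2 mismatches the share was 4.01% in members, 1.38% in flanking windows and 1.89% at all 5′ ends, so matches with 2 mismatches were also found near promoters at large.

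Single promoters called in both replicates also carried RE1, and those of replicate 1 alone rarely did. The share was 7.34% of the 1743 shared intervals, and the difference of 3.17 percentage points did not pass the threshold after adjustment (Fisher's exact test, two-sided, p = 0.0126, adjusted p = 0.0549). It passed in 100-bp windows (3.71 points) and turned to -7.41 points when whole intervals, which are longer in the shared class, were searched. Whole intervals with at most 1 mismatch gave 6.50% of members and 5.28% of shared promoters, a difference of 1.22 points that did not pass (Fisher's exact test, two-sided, adjusted p = 0.292). Among 1488 single promoters of replicate 1 alone, 1.95% had an RE1, which was lower by more than counting error allows (Fisher's exact test, two-sided, adjusted p = 2.6e-16). Only 3 of those 1488 windows had an element with at most 1 mismatch. Windows of replicate 1 only intervals were centred on a replicate 1 peak, which is wider, so an element there may lie outside the window. When whole intervals were searched with 2 mismatches allowed, 10.0% of replicate 1 only intervals had a match and the difference from the members was lost, but with at most 1 mismatch, a setting added after the data were seen, the share was 0.672% there and 6.50% in the members (Fisher's exact test, two-sided, adjusted p = 1.21e-14).

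Replicate 2 peaks sat on the element. In 61 of the 76 members with RE1 (80.3%) the centre of the element was within 25 bp of the peak midpoint, the median distance was 10.5 bp and the widest 87 bp. The widest distance was limited by the 200-bp window in which the element was searched. In 74 of them the whole element was inside the listed peak. In shared single promoters with an RE1, 73 of 128 elements (57.0%) were within 25 bp of the midpoint of the widest replicate 2 peak. Those peaks were wider, with a median of 235 bp over all shared single promoters, beside 162 bp over all members. The element pointed along transcription in 31 of 76 members and against it in the others.

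Members with RE1 were spread to both sides of the TSS, and most members without it lay just downstream. The midpoint was over 250 bp from the nearest TSS in 65.8% of members with RE1 and in 31.7% of members without. Midpoints were downstream of the TSS in 38 of 76 members with RE1 (50.0%) and in 493 of 647 without (76.2%), a difference larger than counting error (Fisher's exact test, two-sided, adjusted p = 9.98e-06). That call was lost when RE1 was held to at most 1 mismatch (61.7% against 74.3%, Fisher's exact test, two-sided, adjusted p = 0.137) or to none (adjusted p = 0.317, exact). Among named genes, the Ghsr peak was centred 1003 bp upstream of the TSS and that of Htr1a 838 bp upstream, while the Gdap1l1, Pomc and Slc35f4 peaks lay 849, 657 and 544 bp downstream, in introns. Only 50 of the 76 lay at the 5′ end of a protein-coding gene. Another 19 lay at other TSSs of protein-coding genes and 7 at non-coding genes alone.

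**Figure D2:**
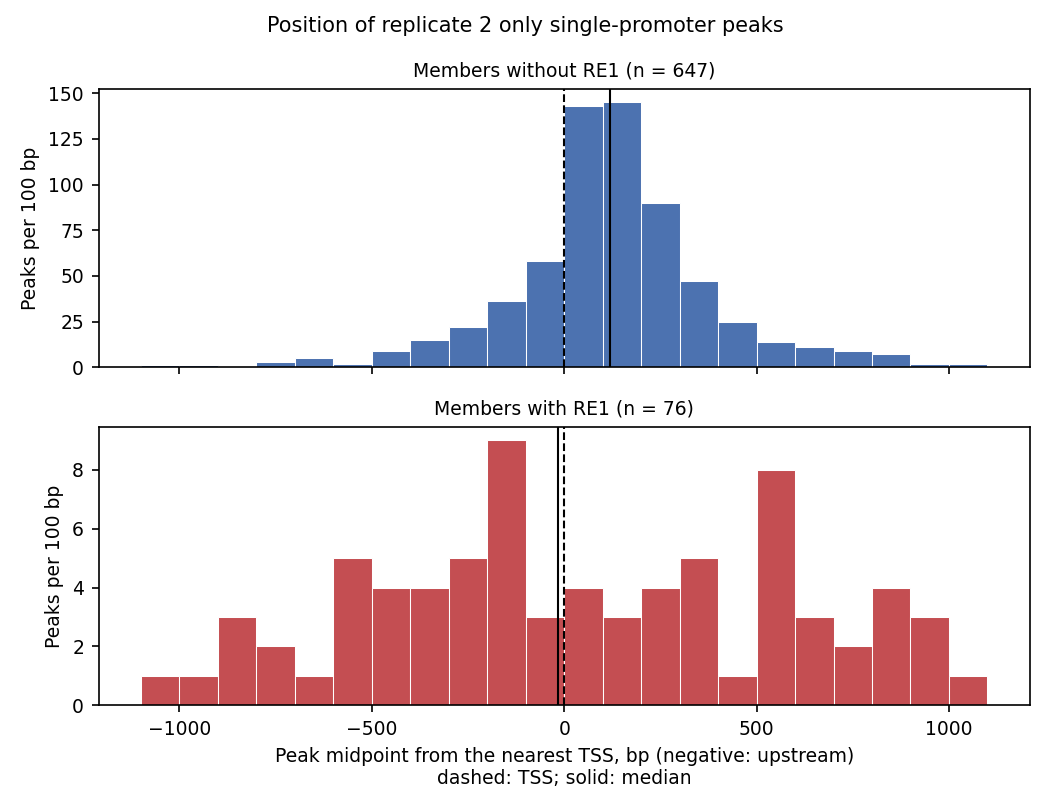
Distance of the peak midpoint from the nearest TSS (bp, horizontal axis, negative upstream) as peaks per 100 bp, for members without RE1 (top) and with RE1 (bottom), with the TSS dashed and the median as a solid line. Members without RE1 form a peak just downstream of the TSS, with a median of 119 bp, and members with RE1 spread over both sides, with a median of -16 bp.

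CpG content also differed between members with and without RE1. A window was called CpG-rich at a GC content of at least 50% and an observed/expected CpG of at least 0.6. Of the members, 574 met this (79.4%, exact 95% CI 76.3 to 82.3%), beside 48.0% of windows on all protein-coding 5′ ends. With RE1, 22 of 76 windows were CpG-rich (28.9%), and without it 552 of 647 (85.3%; Fisher's exact test, two-sided, adjusted p = 2.3e-23). The members that were not CpG-rich were 54 with RE1 and 95 without. At a TSS distance of 500 bp the CpG-rich shares were 42.9% with RE1 and 85.9% without, and at 2 kb 23.8% and 84.4%. The part of TSS distance in this difference was not tested. Median GC content was 56.5% with RE1 and 70% without, and median observed/expected CpG was 0.47 and 0.85. The Mmp24 window was among the exceptions, with 83.5% GC and an observed/expected CpG of 0.93, while that of Gdap1l1 had 56.0% GC and 0.20.

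**Figure D3:**
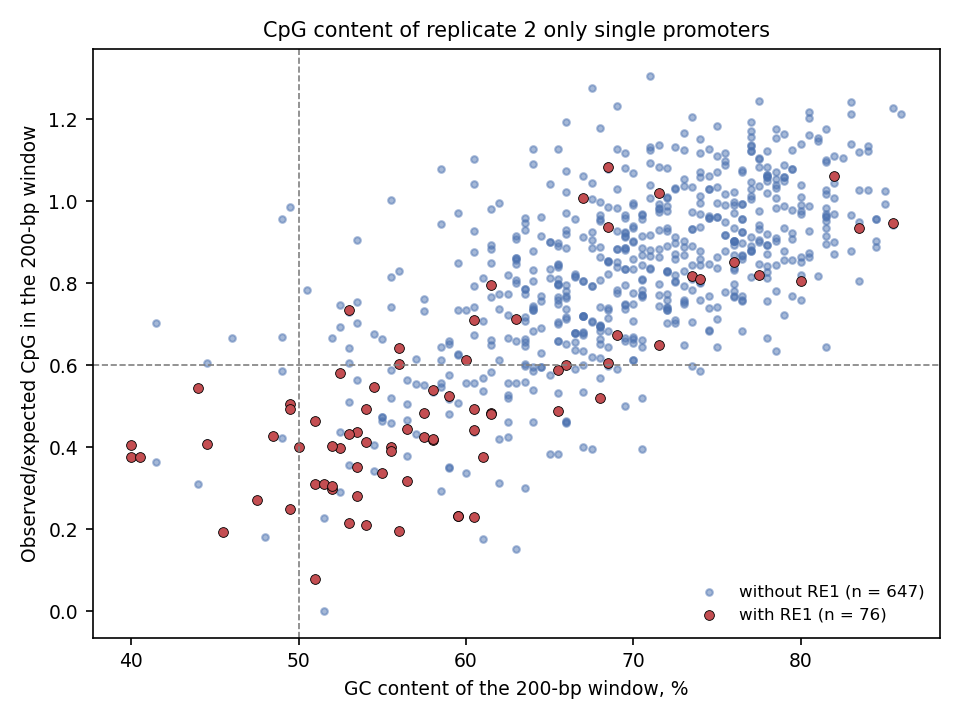
GC content (percent) against observed/expected CpG of the 200-bp window of each member, without RE1 (blue, n = 647) and with RE1 (red, n = 76), with dashed lines at the limits of the CpG-rich class. Most windows with RE1 lie below the observed/expected limit of 0.6, and 85.3% of those without RE1 lie in the upper right field.

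Members were less often CpG-rich than shared single promoters, of which 89.2% were (difference -9.82 percentage points, Fisher's exact test, two-sided, adjusted p = 1.77e-09). Against replicate 1 only single promoters, at 83.1%, the difference of -3.74 points did not pass after adjustment (Fisher's exact test, two-sided, p = 0.0341, adjusted p = 0.0545), though in 400-bp windows it did (-4.24 points). Members also lay downstream of the TSS less often than shared promoters, at 73.4% against 81.1% (Fisher's exact test, two-sided, adjusted p = 7.44e-05), a call that was lost among intervals at or above the median width of their class (74.9% against 78.4%, Fisher's exact test, two-sided, adjusted p = 0.286). Against the 75.7% of replicate 1 only promoters the downstream share did not pass (Fisher's exact test, two-sided, adjusted p = 0.32). With protein-coding 5′ ends as TSSs it did (86.2% against 90.3%, Fisher's exact test, two-sided, adjusted p = 0.0144). The share centred within 100 bp of a TSS was 29.0% (exact 95% CI 25.8 to 32.5%), beside 27.3% in shared and 31.3% in replicate 1 only promoters, and neither difference passed (Fisher's exact test, two-sided, adjusted p = 0.374 and 0.32).

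Whole peaks are printed as single examples of the motifs, picked by width and not as typical of their sets. The widest members of at most 300 bp at a protein-coding 5′ end, with no annotated UTR base, are printed for RE1 (Mmp24, intron) and, without RE1, for NFY (Adgra2, intron), ZFX (Znhit2, coding exon) and SP (Mafg, intron), with the motif in capitals, in GRCm38 on the strand of transcription from the nearest TSS. The motifs were searched on both strands, so NFY (CCAATC) reads GATTGG on the other strand.
Mmp24, RE1 (chr2:155775576-155775847, plus strand): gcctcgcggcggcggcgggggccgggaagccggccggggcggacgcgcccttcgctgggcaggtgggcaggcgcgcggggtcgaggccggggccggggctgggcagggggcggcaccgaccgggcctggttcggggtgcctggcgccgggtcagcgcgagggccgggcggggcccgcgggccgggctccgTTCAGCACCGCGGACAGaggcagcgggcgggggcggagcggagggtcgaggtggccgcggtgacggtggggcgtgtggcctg
Adgra2, NFY (chr8:27086315-27086529, plus strand): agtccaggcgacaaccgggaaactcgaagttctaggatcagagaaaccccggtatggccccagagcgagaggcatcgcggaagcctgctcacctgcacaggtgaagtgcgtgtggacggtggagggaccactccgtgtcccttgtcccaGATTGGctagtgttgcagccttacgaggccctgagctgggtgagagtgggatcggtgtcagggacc
Znhit2, ZFX (chr19:6061396-6061654, plus strand): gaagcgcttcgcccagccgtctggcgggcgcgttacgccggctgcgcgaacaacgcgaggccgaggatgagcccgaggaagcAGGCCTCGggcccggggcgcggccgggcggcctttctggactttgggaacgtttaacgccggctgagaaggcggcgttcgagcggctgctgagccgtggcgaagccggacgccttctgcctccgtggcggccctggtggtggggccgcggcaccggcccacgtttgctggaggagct
Mafg, SP (chr11:120633025-120633321, minus strand): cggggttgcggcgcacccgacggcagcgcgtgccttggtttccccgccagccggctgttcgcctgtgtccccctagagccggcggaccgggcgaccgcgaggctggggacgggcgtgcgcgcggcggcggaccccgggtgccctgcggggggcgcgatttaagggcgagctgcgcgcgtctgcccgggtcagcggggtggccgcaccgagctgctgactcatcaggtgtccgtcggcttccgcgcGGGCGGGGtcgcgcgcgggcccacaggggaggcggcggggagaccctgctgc

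The Mmp24 peak holds its RE1, with 0 mismatches, in a 200-bp window of 83.5% GC. It is not typical of members with RE1, whose median GC content was 56.5% and of which 22 of 76 were CpG-rich. The SP letters (GGGCGGGG) also occur in the Mmp24 peak and are left unmarked there. The windows of Mafg, a small Maf transcription factor gene, and Znhit2 had an observed/expected CpG of 1.08 and 1.13. That of Adgra2, an adhesion receptor gene, was centred 824 bp downstream of the TSS and had a lower GC content of 60.5%. A match to these letters is a description of the sequence and no measure of a bound factor.

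Of 16 motifs searched on both strands, 2 differed between members and shared single promoters. NFY (CCAATC), the CCAAT box, was in 5.26% of members and 2.70% of shared promoters (Fisher's exact test, two-sided, adjusted p = 0.0118), a call lost in 100-bp windows, at a TSS distance of 500 bp, with protein-coding 5′ ends as TSSs and in windows on the merged midpoint. Over whole intervals, far longer in the shared class, the NFY direction reversed, with 4.43% of members and 30.4% of shared promoters holding it (Fisher's exact test, two-sided, adjusted p = 3.97e-53). ZFX (AGGCCTNG) was in 5.53% and 11.2% (Fisher's exact test, two-sided, adjusted p = 5.24e-05), and this call was lost in 100-bp windows alone. Of all protein-coding 5′ ends, 12.8% held NFY and 3.57% ZFX. Against replicate 1 only promoters, RE1 and the E-box (CACGTG) differed, and the E-box was in 2.21% of members and 4.84% of those promoters (Fisher's exact test, two-sided, adjusted p = 0.0118), a call lost in 100-bp windows and among the wider intervals.

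Against windows 1 kb away, members held more SP (GGGCGGGG, 12.3% against 3.18%), E2F (TTCCCGC, 7.88% against 1.45%), ETS (CCGGAAG, 5.39% against 1.18%) and RE1. They held fewer TATA boxes (TATAAA, 1.11% against 11%) and ZNF143 (ACTACAA, 0.553% against 2.56%). These 6 passed (Fisher's exact test, two-sided, highest adjusted p = 0.00397), and the ZNF143 call was lost among the wider members. Windows 1 kb away were not matched to the members for GC content or distance to a TSS. The part of either in these 6 calls was not tested. Windows from both sides of each member were counted as independent, so the pairing of a member with its own flanks was not used. At all protein-coding 5′ ends the shares were 18.5% for SP, 4.38% for E2F, 9.58% for ETS, 8.07% for TATA and 2.29% for ZNF143. YY1 (AAGATGGC), NRF1 (CGCATGCG), CRE (TGACGTCA), RFX (GTTGCCA), AP-1 (TGACTCA) and CTCF passed in none of the 3 comparisons. SIX2, the motif of a known Eya1 partner, had 0 matches in 723 members, which allows a share of up to 0.415% by 3 counts of the total (exact 95% limit 0.509%), and 0.114% of all protein-coding 5′ ends had one.

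**Figure D4:**
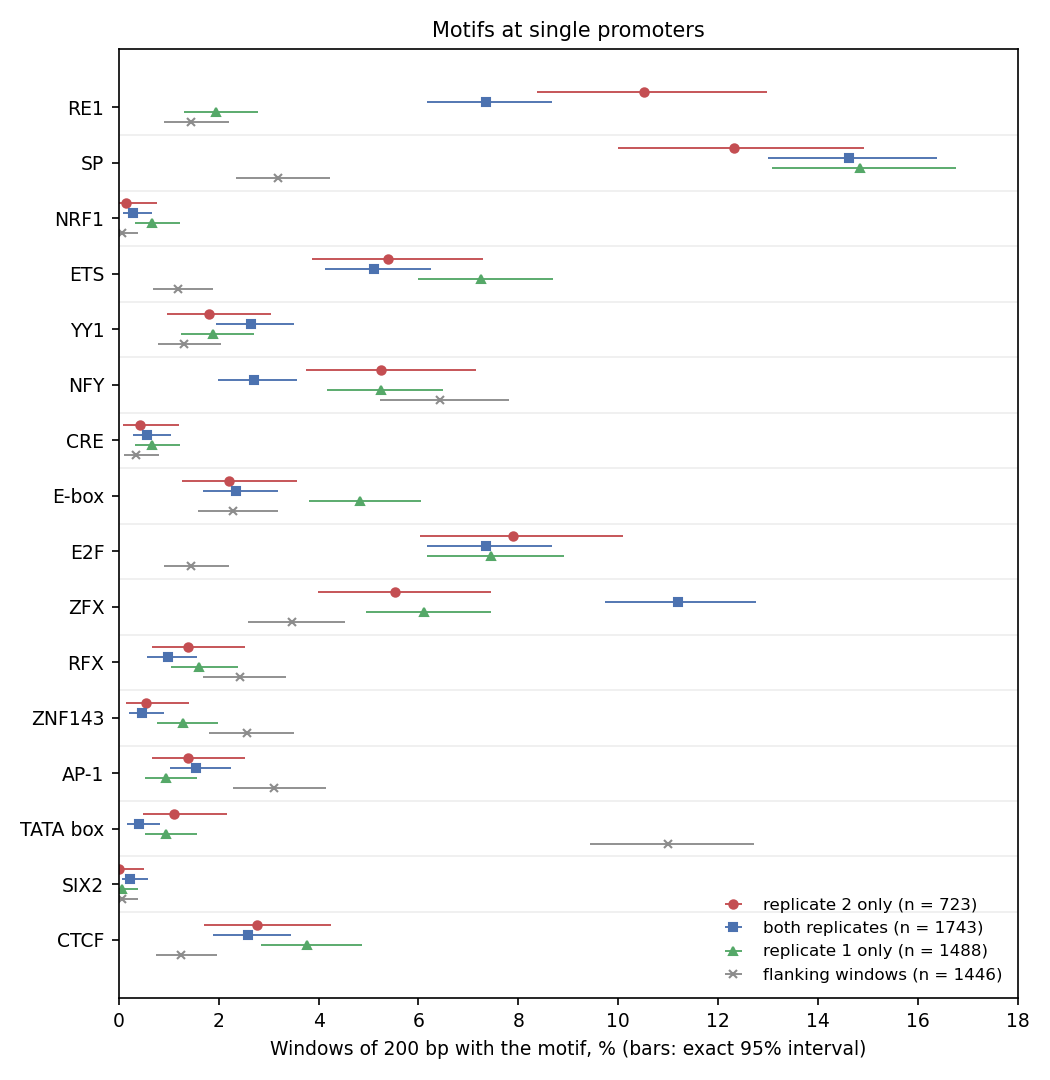
Share of 200-bp windows with each of 16 motifs (percent, horizontal axis, bars exact 95% intervals) in single promoters of replicate 2 only (red), both replicates (blue) and replicate 1 only (green) and in windows 1 kb from the replicate 2 only peaks (grey). RE1 stands at 10.5% in replicate 2 only promoters and 1.95% in replicate 1 only promoters, and ZFX at 5.53% against 11.2% in shared promoters.

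The genes at these promoters were counted by TSSs within 1 kb. Members lay at 647 protein-coding genes, or 2.95% of the 21938 on nuclear chromosomes, and 69 of these genes had a member with RE1. The 8 lists of neuronal genes, 466 genes in all, had 30 genes with a member (6.44%), and 17 of the 30 had an RE1 there. These counts are descriptions, since the neuronal lists were drawn up with REST in mind. A gene on 1 of these lists stood at 17 of the 76 members with RE1 (22.4%) and at 13 of the 647 without (2.01%).

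Among synaptic vesicle genes 5 of 45 had a member, the RE1-bearing Rph3a (164 bp wide), Syt4 (163 bp), Cplx2 (156 bp) and Scamp5 (142 bp) and, without RE1, Cplx1 (119 bp). Neurotransmitter receptors gave 7 of 88, of which 5 had RE1, Gria2 and Htr1a among them, and the nicotinic subunit Chrna3 and the serotonin receptor Htr5a did not. Neuronal adhesion and axon guidance gave 8 of 109, with RE1 at Slitrk1, Cntnap5c and the neurexin Nrxn2 and none at Ephb4 or Cntnap5a. Neuronal cytoskeleton gave 3 of 27, with RE1 at the neurofilament gene Nefm and at Mapk8ip1 but not at Mapk8ip2, and neuronal RNA-binding proteins 2 of 16, Celf4 with RE1 and Celf3 without. The prohormone convertases Pcsk2 and Pcsk1 were the 2 of 12 dense-core vesicle genes and lacked RE1. Ion channels, at 3 of 138 (2.17%, Kcnk12 and Scn3b with RE1 and Kcnk3 without), were near the background of 2.95%, and 0 of 31 neurogenic transcription factors had a member.

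**Figure D5:**
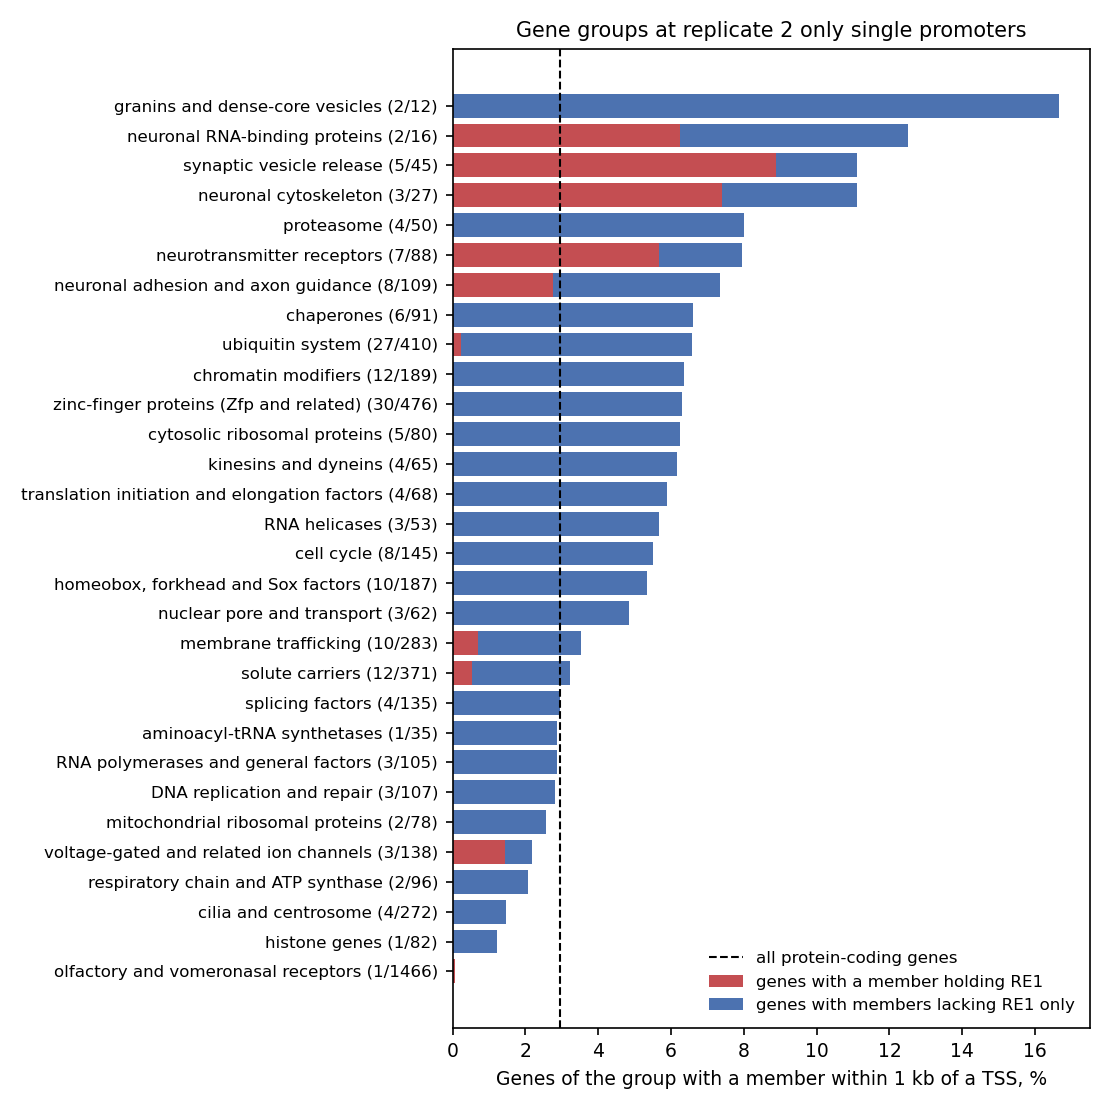
Percent of the genes of each group (10 genes or more, at least 1 with a member) that had a replicate 2 only single promoter within 1 kb of a TSS, split into genes with an RE1-bearing member (red) and genes without one (blue), with the dashed line at 2.95% of all protein-coding genes. Red is largely in the neuronal groups, with 2 genes each in membrane trafficking and solute carriers, and housekeeping groups such as the proteasome (4 of 50) are blue.

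Among lists of genes with basic cell functions, most genes with a member had none with RE1, as had 578 of all 647 genes with a member. The shares with a member ran from below to above the background. Proteasome genes (4 of 50, Psmd12, Psmd6, Psma1 and Psmd8), chaperones (6 of 91, Cct2 and Cct4 of the TRiC chaperonin among them), the ubiquitin system (27 of 410), chromatin modifiers (12 of 189), zinc-finger proteins (30 of 476) and cytosolic ribosomal proteins (5 of 80) had members at 6.25 to 8.00% of their genes, above the background of 2.95%. Of these genes Trim9, a ubiquitin ligase of neurons, was the only one with an RE1. Kinesins and dyneins (4 of 65), translation factors (4 of 68), RNA helicases (3 of 53), cell cycle genes (8 of 145), homeobox, forkhead and Sox factors (10 of 187) and nuclear pore and transport genes (3 of 62) had members at 4.84 to 6.15%. Membrane trafficking (10 of 283), solute carriers (12 of 371), splicing factors (4 of 135), tRNA synthetases (1 of 35), RNA polymerases and general factors (3 of 105), DNA replication and repair (3 of 107), mitochondrial ribosomal proteins (2 of 78) and the respiratory chain (2 of 96) were between 2.08 and 3.53%. Cilia and centrosome genes (4 of 272), histone genes (1 of 82) and olfactory receptors (1 of 1466) were below it. RE1 stood at 2 of the 10 membrane trafficking genes with a member (Vps13c and Rab1b) and at 2 of the 12 solute carriers (Slc35f4 and Slc6a5). The 1 olfactory receptor gene with a member, Olfr464, also had an RE1.

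The chromatin group included Rcor1, which encodes CoREST, the corepressor of REST, with 2 members of 172 and 280 bp. Replicate 1 also had a peak near this promoter, 981 and 62 bp from those members. The group also held Suz12, a subunit of Polycomb repressive complex, with 2 members of 175 and 117 bp, and the H3K4 methyltransferase Kmt2a with 1 of 185 bp. None of these had an RE1.

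The lists of kidney cell markers held 10 genes or fewer each, too few to set a share beside the background of 2.95%. Of the nephron progenitor, endothelium, and neural crest and neuron markers, 0 of 10, 0 of 4 and 0 of 6 genes had a member. The podocyte list had 2 of 7, Magi2 (190 bp) and Nphs1, which encodes nephrin and whose member of 174 bp lay at an internal TSS and held an RE1 with 1 mismatch. The ureteric bud list had Calb1 (1 of 7), which encodes calbindin and is also made by neurons. Its peak was centred 45 bp downstream of the TSS and had an RE1 of 2 mismatches. The stroma list had Meis1 (1 of 5), with members of 138 and 127 bp. Six4 (126 bp) and Hoxa11 (210 bp), factors of early kidney formation, stood in the homeobox group and lacked RE1.

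Widths ran from 117 to 681 bp with a median of 162 bp, and 78 members had the lowest width. The 10 widest, from 497 to 681 bp, were at Gnaq, Acvr2b, Lpgat1, Herpud2, Zfp362, Eif4g1, Rad21, Ago2, Gmps and Cnih1. All 10 were CpG-rich, none had RE1, and 8 were centred downstream of a TSS, where 79.4%, 10.5% and 73.4% of all members were so. Gnaq encodes a G protein alpha subunit, Acvr2b an activin receptor and Rad21 a cohesin subunit. Split at the quartiles of width, RE1 was in 5.43% of the narrowest members, 17.03% and 16.5% of the next 2 groups and 3.31% of the widest.

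Some genes had several separate members. Of the 647 genes, 58 had 2 or more, and Calm2, E2f3, Fbxo30, Ints6, Kdm2b, Kif2a, Phf13 and Smad6 had 3 each. The 3 at Calm2, a calmodulin gene, were 191, 141 and 125 bp wide within 862 bp, and the 3 at Smad6, an inhibitor of BMP signalling, were 163, 158 and 178 bp within 766 bp. Peaks this close share a promoter and are not independent sites, while the 2 at Meis1 spanned 3286 bp and the 2 at Urgcp 21378 bp. Only Zdhhc17 and Zdhhc22, both for palmitoyltransferases, combined several members with an RE1.

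Members near the limits of the rule were as follows. The farthest inside the TSS limit was at Gm17923, 999 bp away, and the nearest interval outside, at Ptprr, was 1030 bp away. No interval of replicate 2 alone reached 2000 bp, and the widest member was the 681 bp at Gnaq. The closest replicate 1 peak was 10 bp from the member at Lpgat1, and 46 members had one within 500 bp, while the smallest overlap that made an interval shared was 15 bp, at Ube2o. The median gap to a replicate 1 peak was 89660 bp.

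The intervals of a list share a library, and p-values over them describe these lists rather than replicate animals. The 95% intervals cover counting error over peaks only.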

How the data were processed

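Eya1 occupancy was measured by ChIP-seq in pooled E13.5 kidneys. The authors aligned reads to mm10 with Bowtie and used MACS, at P cutoffs that varied, with input or IgG as the control, and the submitters' processing notes name HISAT2. The deposited values are peak positions (chromosome, start and end), with no score, count or p-value, so depth is unknown. Peaks sharing at least 1 bp were merged. TSSs of all transcripts and protein-coding 5′ ends were from GENCODE M21, and sequence from GRCm38. Windows of 200 bp were centred on the widest replicate 2 peak (replicate 1 for intervals of replicate 1 alone). Fisher's exact test (two-sided) compared motif shares, with Benjamini-Hochberg adjustment over 48 motif tests and, separately, over 8 tests of CpG content and position. The threshold was an adjusted p of 0.05. The tests of downstream position and of members with against members without RE1 were added after the data were seen. Shares have exact Clopper-Pearson 95% intervals. Tools were Python 3.11.15, pysam 0.24.0, scipy 1.17.1, numpy 2.4.6, pandas 2.3.3 and matplotlib 3.10.9. Classes, motif search and tests were tested on simulated data.

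The members and the lists of motifs and genes were chosen with earlier results of these data known. Genes named with values were the 15 members at protein-coding 5′ ends with RE1 that had fewest mismatches (ties by peak width), the 10 widest members, up to 6 genes with the widest peak in each of 37 gene groups, genes with 2 or more members, and those next to a threshold of the rule. Htr5a, Trim9, Six4 and the genes of the closing observations were picked after their values were seen. Some genes within this rule are not reported here. Alternatives for the TSS distance and set, width, window and mismatches were recomputed.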

Additional observations from a re-analysis of the deposited data

How the results depend on the processing

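Of 136 recomputed values, 102 were counted as unchanged. A tested difference counted so if it kept its direction and its side of the threshold. It also did if its direction changed while neither value passed. The TSS-centred difference from shared promoters, 1.79 points, was such a case at -1.41 points within 200 bp. Other values counted so if they stayed within the main value's interval or 1.5 times its count. Keeping only intervals at or above the median width left 362 members and 344 protein-coding genes, by construction, and moved the replicate 1 only motif count from 2 to 1 and the TSS-centred difference from those promoters to -7.25 points (Fisher's exact test, adjusted p = 0.0348). The RE1 share was 7.52% at a TSS distance of 500 bp, 13.7% at 2 kb, 6.50% with at most 1 mismatch and 2.77% with none. The RE1 difference from shared promoters passed at 2 kb (5.69 points), with no replicate 1 peak within 500 bp (3.73), with head-to-head pairs only (3.06), among the wider intervals (4.90), in 100-bp windows (3.71) and on merged midpoints (5.81), and turned to -7.41 over whole intervals, where shared intervals are longer by construction. Over whole intervals the RE1 difference from replicate 1 only promoters fell to 0.36 points, the CpG difference from them was -10.7 points, and 15 motifs differed in each of those comparisons. The CpG-rich share was 82.7% at 500 bp, 76.1% at 2 kb, 82.6% with protein-coding 5′ ends, 75.5% in 100-bp and 83.1% in 400-bp windows and 73.9% with stricter limits. The CpG difference from replicate 1 only promoters passed at 2 kb (-6.58 points), with no replicate 1 peak within 500 bp (-4.70) and in 400-bp windows (-4.24). The TSS-centred share was 6.75% with protein-coding 5′ ends, where both differences passed (2.58 points from shared and -3.43 points from replicate 1 only promoters), and 56.0% within 200 bp. The motif count against shared promoters fell from 2 to 1 in 100-bp windows and at 500 bp. Other causes of these shifts were not tested. Leaving out a replicate gives no value, since the rule compares both lists. No paired analysis of samples was possible because only 1 group had replicates.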

Other observations

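Of the 723 members, 23 lay within 1 kb of the TSS of non-coding genes alone, and 7 of these had an RE1 in the window. Among the 23 were Mir125b-1, the gene of a miR-125b precursor (143 bp wide, no RE1), Mir9-3hg, the host gene of a miR-9 precursor (226 bp, no RE1), and Dnm3os, the host transcript of miR-199a-2 (245 bp, no RE1). Hoxa11os, antisense to Hoxa11, had a member of 140 bp. Its RE1, with 2 mismatches, lay in the window but outside the listed peak. The snoRNA host genes Snhg12 (216 bp) and Snhg15 (201 bp) had members without RE1. These genes were picked after their values were seen.

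RE1 with 0 mismatches also lay at other TSSs of 6 protein-coding genes, Nptxr and Bcan among them. Nptxr encodes a neuronal pentraxin receptor and Bcan the brain proteoglycan brevican, and their peaks were 205 and 138 bp wide. RE1 with 1 mismatch stood at the hormone gene Sst (somatostatin, peak 134 bp wide) and at Nms (neuromedin S, 148 bp). Their peaks were centred 620 and 582 bp downstream of the TSS, both in introns. Slc6a5, the neuronal glycine transporter gene, had an RE1 with 1 mismatch in a peak centred 155 bp upstream of the nearest TSS.

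Chromosome 5 held 73 members (10.1%) beside 5.74% of protein-coding genes. It was named because it held the most members, and its share in the other classes was not compared. The X chromosome held 0 of 723 members, which allows a share of up to 0.415% by 3 counts of the total (exact 95% limit 0.509%), beside 9 of 1743 shared and 10 of 1488 replicate 1 only single promoters and 4.32% of protein-coding genes. Repeat-masked bases were present in 35.5% of member windows, 31.6% of shared and 33.9% of replicate 1 only windows.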
